A study of Homo sapiens with 24 samples.

Results

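Homologous recombination and Fanconi anemia genes encode the proteins that repair broken DNA from an intact copy and remove crosslinks between the strands. The group was a set of 34 genes named by symbol, and all 34 were found among the 58051 genes of the count tables, each under 1 Ensembl identifier. The group was chosen by the measured response of RAD54L to Ocoxin, which had opposite signs in different cell lines. The response of RAD54L is therefore given as values without a test, and counts of responses cover the other 33 members, while those of control levels cover all 34.

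In homologous recombination, nucleases trim the ends of a DNA break and leave single strands, the BRCA proteins prepare these strands for exchange, and RAD54L and its relatives help to pair them with the intact copy. The joined molecules are then resolved or dissolved by helicases and nucleases. The Fanconi proteins act when the strands are crosslinked, where a core ubiquitin ligase marks the FANCD2 and FANCI pair and opens the way to incision and recombination. Most of these genes are used in dividing cells while DNA is copied.

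The mRNA was sequenced from 4 human cancer cell lines, each 1 established line grown in culture. They were SW620 (colorectal adenocarcinoma, COAD), BxPC-3 (pancreatic adenocarcinoma, PAAD), LNCaP (prostatic adenocarcinoma, PRAD) and HCC-70 (triple-negative breast cancer, TNBC). Each line had 3 control libraries and 3 libraries of cells kept for 48 h with Ocoxin, a nutritional mixture that combines extracts of plants with vitamins, minerals and amino acids. Ocoxin was given in medium with little serum, and the authors do not state the medium of the controls separately. The dilution of Ocoxin was 50-fold in PRAD, 500-fold in PAAD and 700-fold in both COAD and TNBC, so that only COAD and TNBC shared a dilution. The labels attach the dilution to the control libraries as well, and the control and Ocoxin letters of the titles decided the group. RNA came from adhered cells, and in bulk RNA a lower share of some cells cannot be told apart from less RNA per cell.

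The libraries held 25160757 to 34397801 counts in COAD, 31101178 to 34231106 in PAAD, 36863490 to 39009959 in TNBC and 9063968 to 9520969 in PRAD, which was counted separately and with other settings. The number of genes at exactly 2 counts, divided by the number at exactly 1, was 2.69 to 3.28 in the COAD, PAAD and TNBC libraries and 0.471 to 0.501 in PRAD, as where the mates of a read pair each give a count in the first 3 lines, so that counts and totals cannot be compared with those of PRAD. All 34 members passed the filter on low counts in every line. RAD54B went down to 90 raw counts in a PRAD library and to 91 in a PAAD library, where a fragment can give 2. The labels do not say that the libraries of a group came from separate cultures, so p-values measure the spread between these libraries, which may be technical. Each line expressed its markers, with all 5 at 1 RPKM (counts per kilobase of exon, scaled to library size) or more in every library of BxPC-3, LNCaP and HCC-70 and 4 of 5 in SW620, where CDX1 stayed under that level. Reaching it does not single out a line. TSPAN8 was at 1.42 to 1.79 RPKM in BxPC-3 and 4.41 to 7.94 in SW620. KRT17 was at 57.6 to 111 RPKM in HCC-70 and 660 to 973 in BxPC-3. Among these 3 lines, the SW620 markers other than CDX1 were highest in SW620. KRT7 and S100P were highest in BxPC-3, and KRT14 and KRT6B in HCC-70. The BxPC-3 marker MUC1 was at 16.1 to 19.7 RPKM in BxPC-3 and 59.6 to 81.4 in HCC-70. The HCC-70 marker KRT5 was at 328 to 389 RPKM in HCC-70 and 565 to 772 in BxPC-3. KRT19 and EGFR overlapped between these lines. In HCC-70, ESR1 was at 0.404 to 0.600 RPKM, PGR was at 0 counts and ERBB2 was at 23.4 to 27.8 RPKM. ERBB2 was at 11.9 to 14.4 RPKM in SW620 and 11.1 to 12.8 in BxPC-3.

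Promoters of 31 members were found in the RefSeq table (GRCh38.p14), with 40 start sites in all. RAD54B, NBN and FANCI had no entry. Windows of 250 bases before to 50 bases after each start were searched on both strands for the E2F site (TTTCGCGC or TTTGGCGC), the cell cycle element CHR (TTTGAA) and the CCAAT box (CCAAT), and no match overlapped another motif. The CCAAT box was in 15 of the 40 windows (37.5%, against 34.6% of all 35116 promoters), the CHR letters were in 4 (10%, against 15.2%) and an E2F site was in 2 (5%, against 1.15%). A match is a description of the letters and no evidence of a bound factor. The windows of RAD54L, whose signs led to the group, and of BRIP1 and EXO1, which differ in their motifs, are printed 5′ to 3′ with the motifs of either strand in capitals. They lie at chr1:46247438-46247737 on the plus strand, chr17:61863479-61863778 on the minus strand and chr1:241847954-241848253 on the plus strand. RAD54L holds 2 CCAAT boxes, BRIP1 holds 3 CCAAT boxes and 1 CHR, and EXO1 holds 1 E2F site.
RAD54L: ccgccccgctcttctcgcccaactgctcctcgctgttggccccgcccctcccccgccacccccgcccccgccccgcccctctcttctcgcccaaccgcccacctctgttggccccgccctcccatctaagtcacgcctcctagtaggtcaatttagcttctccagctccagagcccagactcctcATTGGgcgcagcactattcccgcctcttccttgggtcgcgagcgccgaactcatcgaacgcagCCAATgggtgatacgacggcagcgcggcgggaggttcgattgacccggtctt
BRIP1: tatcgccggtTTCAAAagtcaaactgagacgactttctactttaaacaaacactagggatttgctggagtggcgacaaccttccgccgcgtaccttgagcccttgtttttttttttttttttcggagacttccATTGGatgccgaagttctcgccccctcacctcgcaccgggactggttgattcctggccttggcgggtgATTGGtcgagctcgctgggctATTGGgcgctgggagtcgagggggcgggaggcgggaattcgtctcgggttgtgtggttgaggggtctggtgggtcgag
EXO1: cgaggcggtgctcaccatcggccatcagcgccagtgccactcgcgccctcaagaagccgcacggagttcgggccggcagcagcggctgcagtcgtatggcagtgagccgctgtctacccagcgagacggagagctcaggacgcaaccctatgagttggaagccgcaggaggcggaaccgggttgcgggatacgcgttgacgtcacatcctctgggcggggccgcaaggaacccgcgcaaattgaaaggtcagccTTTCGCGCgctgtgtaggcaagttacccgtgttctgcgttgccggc

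RAD54L is an ATPase motor that drives strand exchange. Its level, in CPM (counts scaled to library size, with TMM factors), was 39.2, 40.7 and 38.4 in the COAD controls and 31.7, 32.8 and 29.9 with Ocoxin, and 62.6, 60.7 and 66.7 (control) and 42.002, 44.6 and 53.2 (Ocoxin) in PRAD. In PAAD it was 26.3, 24.3 and 26.1 in the controls and 30.7, 29.6 and 30.3 with Ocoxin, and in TNBC 32.4, 29.7 and 31.6 (control) and 36.3, 37.6 and 33.4 (Ocoxin). The groups did not overlap in any line, with the treated libraries below the controls in COAD and PRAD and above them in PAAD and TNBC. The log2 fold changes, Ocoxin against control, were -0.33 (SE 0.067) in COAD, -0.44 (SE 0.091) in PRAD, 0.24 (SE 0.073) in PAAD and 0.19 (SE 0.062) in TNBC, with n = 3 libraries per group. RAD54L (ENSG00000085999, chr1:46247688-46278473, hg38) shares 806 of its 3212 exonic bases with LRRC41 on the other strand, and the counting did not use the strand. LRRC41 itself had log2 fold changes of 0.13, 0.055, -0.13 and -0.019 in COAD, PRAD, PAAD and TNBC, with adjusted p-values of 0.196 or more (edgeR quasi-likelihood F-test, Benjamini-Hochberg over all genes).

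In COAD, Ocoxin downregulated 7 of the other 33 members and upregulated none. They were FANCD2, BRIP1, FANCI, XRCC2, FANCB, FANCC and FANCA. Of all 17659 genes tested in COAD 2.55% were altered, 1.47% upward and 1.09% downward, and since this contrast led to the group, nothing is read from the difference. The log2 fold change was below 0 for 29 members, the median over all 34 was -0.12, and the median over all genes was -0.0053. Treated libraries lay wholly below the controls for 12 members and wholly above for none, against 10.4% and 10.2% of all genes. At an unadjusted p under 0.05 there were 11 members in either direction, against 16% of all genes, and DESeq2 called 8, all lower, against 1.81% of all genes. With a trend on gene length and GC content removed, upward calls made up 44.2% of all altered genes in place of 57.4%. Without Ocoxin replicate 2 the count was 1, and without control replicate 1 or control replicate 2 it was 3.

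In PRAD, FANCA alone was downregulated (1 of 33, 3.03%) and no member was upregulated. Of 17070 genes 2.98% were altered, 0.58% downward and 2.4% upward. The share of members is near that of all genes for both directions together, though not for decreases alone. With only 1 call, nothing is read from it. The log2 fold change was below 0 for 28 members, with a median over all 34 of -0.17 (0.0088 over all genes). Ocoxin and control did not overlap for 13 members, 12 of them lower with Ocoxin and FANCF higher, against 12.4% and 15.2% of all genes. At an unadjusted p under 0.05 there were 15 members, against 20.8% of all genes, and DESeq2 called 5, all lower, against 0.978%. With the length and GC trend removed, upward calls made up 28.2% of all altered genes in place of 80.5%, and 11 members were lower, against 10.3% of all genes. With the replicate number as a block 6 members were downregulated, FANCA with EXO1, FANCI, FANCC, FANCG and EME1, against 2.69% of all genes. The count was 0 without Ocoxin replicate 2, control replicate 2 or control replicate 3, and 4 without Ocoxin replicate 3.

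In PAAD, EME1 and FANCG were upregulated (2 of 33) and no member was downregulated, where 8.33% of 17280 genes were altered, 4.72% upward and 3.62% downward. The log2 fold change was above 0 for 24 members, with a median over all 34 of 0.10 (0.0027 over all genes). Treated libraries lay wholly above the controls for 5 members and wholly below for none, against 13.6% and 13.9% of all genes. At an unadjusted p under 0.05 there were 10 members, against 22.8% of all genes, and DESeq2 called 3, all higher, against 5.99%. With the replicate block 12 members were upregulated, adding BRCA2, BRCA1, FANCD2, XRCC3, EXO1, FANCM, BLM, RAD51C, FANCI and FANCA, against 12.1% of all genes. With the length and GC trend removed, upward calls made up 47.6% of all altered genes in place of 56.6%. The count was 0 without Ocoxin replicate 1 or control replicate 2, 1 without Ocoxin replicate 2, Ocoxin replicate 3 or control replicate 1, and 6 without control replicate 3. Control replicate 3 was the highest of the PAAD controls for 27 of the 34 members, and Ocoxin replicate 3 was the highest treated library for 26, ranks that were not counted over all genes.

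In TNBC, Ocoxin upregulated 13 of the 33 members and downregulated FANCL, where 21% of 17352 genes were altered, 9.65% upward and 11.3% downward. The upregulated members were BRCA2, MRE11, EME1, SLX4, FANCD2, BLM, RAD51C, RAD50, BRCA1, FANCG, EXO1, NBN and BRIP1. The log2 fold change was above 0 for 27 members, with a median over all 34 of 0.14 (0.0056 over all genes). Treated libraries lay wholly above the controls for 19 members and wholly below for 3, against 18.3% and 19.8% of all genes. The count of altered members was 6 without control replicate 1 or control replicate 2 and 8 without Ocoxin replicate 1 or Ocoxin replicate 2.

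**Figure D1:**
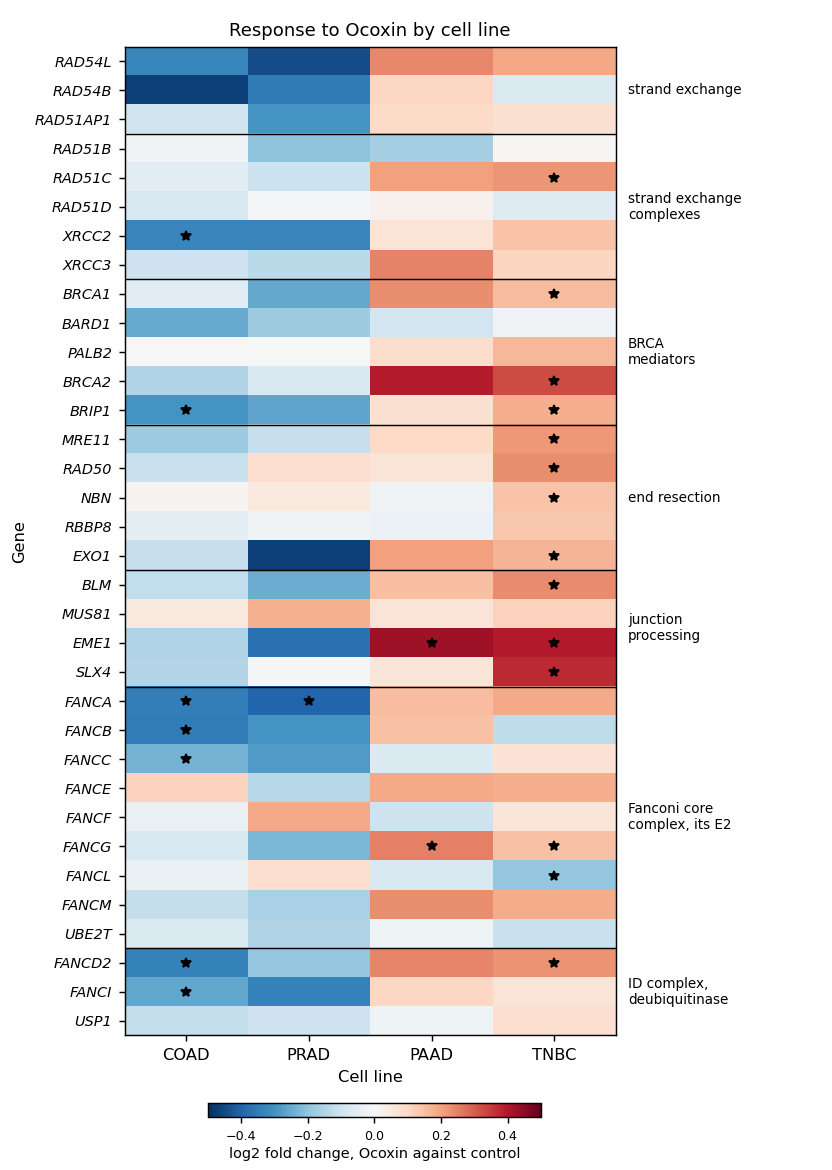
Log2 fold change of each of the 34 genes (rows, by role) in each cell line (columns), Ocoxin against control with 3 libraries per group. Red is higher with Ocoxin, blue is lower, and stars mark an adjusted p under 0.05 (RAD54L was not tested). COAD and PRAD are mostly blue, with 29 and 28 of the other 33 members below 0, and PAAD and TNBC mostly red, with 24 and 27 above 0.

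The sign order of RAD54L, lower in COAD and PRAD and higher in PAAD and TNBC, was shared by 17 of the 33 other members. Over the 13341 genes tested in all 4 lines, 1195 (8.96%) had it. It was shared whether or not the single responses passed the test, and 14 members were altered in no line, 14 in 1 line and 5 in 2 lines. The number of lines with a call was not counted over all genes, of which 21% were altered in TNBC. Nothing is therefore read from these 3 counts. FANCD2 and BRIP1 fell in COAD and rose in TNBC. EME1 and FANCG rose in both PAAD and TNBC, and FANCA fell in both COAD and PRAD. MUS81 was above 0 in all 4 lines, and BARD1 and UBE2T were below 0 in all 4, with no response of these 3 genes past the test.

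Among the strand exchange genes, RAD54B and RAD51AP1 had no altered response. RAD54B, the paralog of RAD54L, was at 6.51, 8.18 and 7.27 CPM in the COAD controls and at 5.42, 4.85 and 5.66 CPM with Ocoxin, with no overlap and a log2 fold change of -0.47 (adjusted p = 0.0685). It shares 59.1% of its exonic bases with FSBP. RAD51AP1, which aids the formation of joint molecules, had log2 fold changes of -0.098, -0.30, 0.096 and 0.075 in COAD, PRAD, PAAD and TNBC, with adjusted p-values of 0.153 to 0.542.

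The 5 genes RAD51B, RAD51C, RAD51D, XRCC2 and XRCC3 encode related proteins that form small complexes and assist strand exchange. XRCC2 was at 65.6, 69.8 and 58.6 CPM in the COAD controls and at 53.9, 48.8 and 51.8 with Ocoxin, and in PRAD at 76.3, 69.02 and 71.5 (control) and 52.05, 55.5 and 64.8 (Ocoxin). Both lines showed no overlap, and the decrease passed the test in COAD (-0.33, adjusted p = 0.01) and not in PRAD (-0.33, adjusted p = 0.0817). In PAAD it was at 16.5, 16.8 and 19.3 (control) and 18.1, 17.7 and 19.2 (Ocoxin), which overlapped, and in TNBC at 27.8, 25.2 and 26.4 (control) and 29.8, 29.7 and 28.03 (Ocoxin), all higher with Ocoxin but with an adjusted p of 0.128. The COAD call of XRCC2 was lost without Ocoxin replicate 2, control replicate 1 or control replicate 2 (adjusted p = 0.116, 0.0598 and 0.121, and 4.42e-07 to 0.121 over all alternatives).

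RAD51C, part of both of these complexes, rose in TNBC from 26.9, 26.98 and 29.3 CPM to 31.4, 32.4 and 33.2 CPM without overlap (0.22, adjusted p = 0.0193). In PAAD it was at 23.1, 19.7 and 23.3 (control) and 23.6, 24.8 and 27.7 (Ocoxin), also without overlap, with an adjusted p of 0.186 (0.0299 with the replicate block). It was at 53.5, 52.9 and 56.8 (control) and 48.7, 51.8 and 57.01 (Ocoxin) in COAD and at 86.5, 88.4 and 89.8 (control) and 79.8, 83.04 and 82.6 (Ocoxin) in PRAD, with overlap in COAD and with all treated libraries lower in PRAD, and neither passed the test. The TNBC call was lost without Ocoxin replicate 2, control replicate 1 or control replicate 2 (adjusted p = 0.065, 0.0765 and 0.0733, and 0.00132 to 0.0765 over all alternatives). RAD51B, RAD51D and XRCC3 were altered in no line, with log2 fold changes from -0.20 (RAD51B in PRAD) to 0.25 (XRCC3 in PAAD). XRCC3 passed the test in PAAD with the replicate block (adjusted p = 0.000576 against 0.0698 without it), and shares 76.7% of its exonic bases with KLC1 and other genes. The log2 fold change of KLC1 was -0.035 for COAD, 0.0070 for PRAD, 0.16 for PAAD and 0.076 for TNBC (adjusted p = 0.878, 0.965, 0.171 and 0.491), and its part in the XRCC3 values was not tested.

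Of the 5 BRCA mediators, BRCA2, BRCA1 and BRIP1 rose in TNBC and BRIP1 fell in COAD. BRCA2, which binds single strands and prepares them for exchange, was at 47.2, 42.9 and 45.1 CPM in the TNBC controls and at 58.6, 55.2 and 55.7 with Ocoxin, without overlap (0.33, SE 0.053, adjusted p = 0.00111). The call held without any 1 library and was lost in a fit of all 24 libraries (adjusted p = 0.207, and 2.65e-08 to 0.207 over all alternatives). In PAAD it was at 38.2, 42.4 and 56.6 (control) and 52.2, 58.4 and 69.3 (Ocoxin), a larger log2 fold change (0.39) with overlap, since control replicate 3 was above Ocoxin replicate 1. Its adjusted p there was 0.0586, and 3.97e-07 with the replicate block.

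BRCA1, the ubiquitin ligase that promotes resection and BRCA2 recruitment, was at 81.7, 76.6 and 76.7 CPM in the TNBC controls and at 86.5, 87.4 and 88.4 with Ocoxin (0.16, adjusted p = 0.0222). In PAAD its log2 fold change was 0.23 (adjusted p = 0.108, 0.00012 with the replicate block) and in PRAD -0.25 (adjusted p = 0.268). The TNBC call did not hold without Ocoxin replicate 1 or 2 or control replicate 2 or 3 (adjusted p = 0.0651, 0.0747, 0.0789 and 0.0709, and 0.00112 to 0.374 over all alternatives). BRIP1 (ENSG00000136492, chr17:61681266-61863521), the helicase partner of BRCA1, was at 101, 102 and 96.2 CPM in the COAD controls and at 83.4, 79.4 and 80.3 with Ocoxin (-0.30, SE 0.052, adjusted p = 0.00294). In TNBC it was at 25.6, 24.1 and 25.7 (control) and 28.3, 29.000 and 28.2 (Ocoxin) (0.18, adjusted p = 0.0437). Neither line overlapped, and the TNBC call was lost without any 1 of its 6 libraries, at adjusted p-values of 0.0544 to 0.142 (0.0133 to 0.258 over all alternatives). It was also lost in 5 of 9 other alternatives, among them DESeq2 (adjusted p = 0.0761). The COAD call was lost without Ocoxin replicate 2 (adjusted p = 0.0522, and 4.85e-08 to 0.0749 over all alternatives). BRIP1 was at 88.2, 76.1 and 92.01 (control) and 61.5, 68.4 and 83.5 (Ocoxin) in PRAD and at 33.7, 40.5 and 43.02 (control) and 38.1, 39.8 and 45.5 (Ocoxin) in PAAD, with overlap in both.

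BARD1, the partner of BRCA1, and PALB2, the bridge between BRCA1 and BRCA2, were altered in no line. BARD1 was lower with Ocoxin in every treated library of COAD (-0.25, adjusted p = 0.0562) and of PRAD (-0.18, adjusted p = 0.155). PALB2 was higher in every treated library of TNBC (0.17, adjusted p = 0.0553, 0.00476 with the replicate block), and its log2 fold change was 3.9e-05 in COAD and -0.00098 in PRAD.

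End resection is started by the MRE11, RAD50 and NBN complex with RBBP8 (CtIP) and extended by EXO1. All 3 genes of the complex rose in TNBC, and EXO1 rose with them. MRE11 (ENSG00000020922, chr11:94415578-94493908), the nuclease, was at 43.2, 42.9 and 42.3 CPM in the TNBC controls and at 50.9, 48.7 and 49.8 with Ocoxin (0.22, SE 0.048, adjusted p = 0.00677), and the call held without any 1 library. In COAD it was at 118, 119.6 and 118 (control) and 103, 105 and 106 (Ocoxin), lower in every treated library, with an adjusted p of 0.0515. MRE11 overlapped in PAAD, at 67.2, 69.6 and 80.05 (control) and 78.3, 74.1 and 79.9 (Ocoxin), and in PRAD, at 102, 94.9 and 99.99 (control) and 83.4, 91.3 and 99.8 (Ocoxin).

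RAD50, the ATPase of the complex, had 73.4, 69.998 and 80.3 CPM in the TNBC controls and 84.5, 83.7 and 94.8 with Ocoxin (0.23, adjusted p = 0.0193). NBN, its signalling subunit, had 209.7, 203 and 222 (control) and 229.8, 227 and 244 (Ocoxin) (0.14, adjusted p = 0.036). The RAD50 call was lost without control replicate 1 or 2 (adjusted p = 0.0774 and 0.0894, and 2.39e-06 to 0.0894 over all alternatives), and the NBN call without any library but control replicate 3 (0.0595 to 0.142, and 0.000156 to 0.157 over all alternatives). In the other 3 lines RAD50 and NBN were not altered, with log2 fold changes of -0.11 to 0.085. RBBP8 was higher in every treated TNBC library (0.14, adjusted p = 0.0503, 0.0006 with the replicate block).

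EXO1, the exonuclease of long resection, had the lowest log2 fold change of any member in PRAD, -0.47 (SE 0.11), from 78.5, 67.3 and 80.5 CPM to 49.1, 51.2 and 63.7 CPM without overlap. That difference missed the threshold (adjusted p = 0.0713, 0.0156 with the replicate block). In TNBC it rose from 75.5, 70.7 and 78.1 to 82.4, 82.2 and 87.4 (0.17, adjusted p = 0.0297). The groups overlapped in PAAD, at 27.3, 25.5 and 28.7 (control) and 28.5, 30.5 and 35.02 (Ocoxin), and in COAD, at 47.7, 52.8 and 48.8 (control) and 45.2, 44.8 and 48.1 (Ocoxin). The TNBC call of EXO1 was lost without any library but control replicate 3 (adjusted p = 0.0633 to 0.118, and 0.000604 to 0.214 over all alternatives).

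Among the junction processing genes, EME1 had the largest increase of any member in PAAD and in TNBC. EME1 (ENSG00000154920, chr17:50373220-50381483), the partner that makes the MUS81 nuclease active, was at 8.12, 9.07 and 9.21 CPM in the PAAD controls and at 12.4, 11.3 and 11.8 with Ocoxin (0.43, SE 0.10, adjusted p = 0.0159). In TNBC it was at 10.8, 12.05 and 10.03 (control) and 14.4, 14.3 and 14.6 (Ocoxin) (0.40, SE 0.088, adjusted p = 0.00707). Neither line overlapped, and the TNBC call held without any 1 library, while the PAAD call was lost without Ocoxin replicate 1, control replicate 1 or control replicate 2 (adjusted p = 0.0784, 0.0676 and 0.052, and 0.00101 to 0.0784 over all alternatives).

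EME1 was lower in every treated library of PRAD, at 51.1, 47.2 and 53.5 (control) and 35.4, 40.4 and 41.6 (Ocoxin) (-0.37, adjusted p = 0.057, 0.0287 with the replicate block). In COAD it was at 21.5, 25.8 and 20.9 (control) and 22.1, 19.8 and 19.5 (Ocoxin), with overlap. EME1 shares 16.4% of its exonic bases with LRRC59 on the other strand. LRRC59 fell in TNBC (-0.19, adjusted p = 0.00655), the opposite direction to EME1, and in the other lines its log2 fold change was between -0.081 and -0.00028. MUS81 was altered in no line (0.049 to 0.18).

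**Figure D2:**
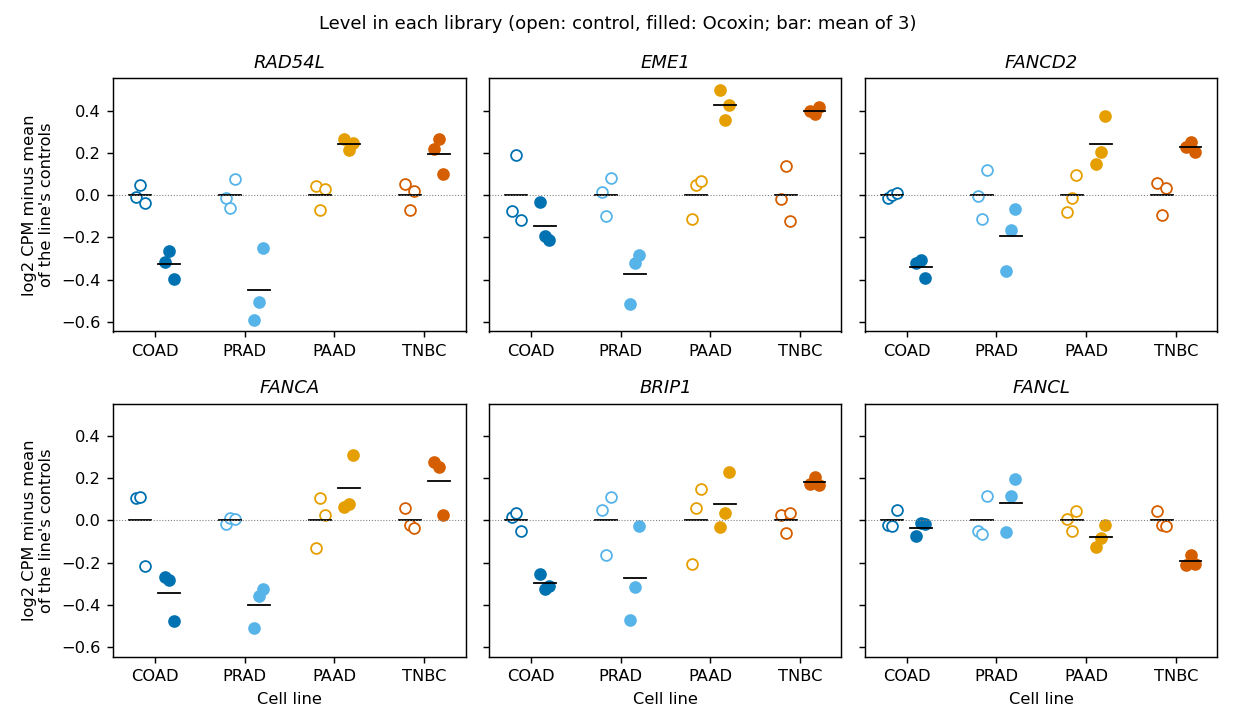
Level of 6 genes in each of the 24 libraries, as log2 CPM minus the mean of the controls of the same line, with open points for control, filled points for Ocoxin and bars for the mean of 3 libraries. RAD54L and EME1 lie below 0 with Ocoxin in COAD and PRAD and above 0 in PAAD and TNBC, FANCL lies below 0 in TNBC, and PRAD Ocoxin replicate 3 is above the other 2 treated libraries for RAD54L, FANCD2 and BRIP1.

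BLM, the helicase that dissolves joined molecules, was at 32.4, 30.3 and 33.7 CPM in the TNBC controls and at 37.1, 36.3 and 40.1 with Ocoxin, without overlap (0.23, adjusted p = 0.0178). The call was lost without control replicate 1 or control replicate 2 (adjusted p = 0.0522 and 0.0801, and 0.000303 to 0.12 over all alternatives). BLM overlapped between groups in the other lines, at 69.7, 73.9 and 69.6 (control) and 61.7, 63.8 and 70.5 (Ocoxin) in COAD, 43.7, 36.6 and 43.9 (control) and 29.6, 34.97 and 40.1 (Ocoxin) in PRAD, and 38.03, 41.6 and 48.3 (control) and 42.9, 46.01 and 53.1 (Ocoxin) in PAAD. SLX4, the scaffold that holds several nucleases, rose in TNBC from 27.8, 27.1 and 23.9 to 37.7, 33.8 and 30.5 (0.37, SE 0.083, adjusted p = 0.00779), and the call held without any 1 library. In the other 3 lines SLX4 overlapped, with log2 fold changes of -0.15, -0.012 and 0.059 in COAD, PRAD and PAAD.

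The Fanconi core complex with FANCM and UBE2T held 9 members. FANCA, FANCB and FANCC fell in COAD, FANCA fell in PRAD, FANCG rose in PAAD and in TNBC, and FANCL fell in TNBC. FANCA (ENSG00000187741, chr16:89737549-89816657), a large subunit of the core, was at 68.4, 68.5 and 54.7 CPM in the COAD controls and at 52.7, 52.2 and 45.6 with Ocoxin (-0.35, SE 0.086, adjusted p = 0.0494). In PRAD it was at 80.3, 81.99 and 81.7 (control) and 57.1, 63.4 and 64.8 (Ocoxin) (-0.40, SE 0.058, adjusted p = 0.0219). Neither line overlapped, and the treated PRAD libraries were all more than 15 CPM under the lowest control.

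FANCA in PAAD was at 37.8, 44.4 and 41.98 (control) and 43.2, 43.6 and 51.2 (Ocoxin), with overlap. In TNBC it was at 71.02, 67.2 and 66.5 (control) and 82.6, 81.3 and 69.4 (Ocoxin), where Ocoxin replicate 3 fell inside the range of the controls (0.19, adjusted p = 0.0542, 0.000333 with the replicate block). The COAD call was lost without any library but control replicate 3 (adjusted p = 0.0602 to 0.18, and 2.89e-08 to 0.18 over all alternatives). It was also lost with counts halved (0.0749) and with a minimum of 10 counts in every library (0.0721). The PRAD call was lost without Ocoxin replicate 2, control replicate 2 or control replicate 3 (0.0967, 0.0828 and 0.0668, and 5.77e-05 to 0.0967 over all alternatives). FANCA shares 23.6% of its exonic bases with ZNF276 and other genes. The log2 fold change of ZNF276 was -0.083 for COAD, -0.063 for PRAD, 0.14 for PAAD and 0.12 for TNBC (adjusted p = 0.721, 0.746, 0.443 and 0.362). These signs are those of FANCA in all 4 lines, and the part of ZNF276 reads in the FANCA values was not tested.

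FANCG, another core subunit, had 40.1, 40.3 and 39.8 CPM in the PAAD controls and 46.8, 47.4 and 48.998 with Ocoxin (0.25, SE 0.063, adjusted p = 0.021). In TNBC it had 114, 119.7 and 116 (control) and 130.05, 132 and 125 (Ocoxin) (0.15, adjusted p = 0.0235). In PRAD and COAD every treated library was below the controls, at 80.4, 91.03 and 93.5 (control) and 70.1, 76.2 and 79.9 (Ocoxin) and at 79.8, 79.97 and 80.6 (control) and 78.9, 74.3 and 74.9 (Ocoxin). Groups thus stood apart in all 4 lines, and the decreases did not pass the test (adjusted p = 0.137 and 0.527, and 0.0247 in PRAD with the replicate block). The PAAD call held without control replicate 3 and was lost without any other library (0.0502 to 0.0921, and 0.000397 to 0.0921 over all alternatives). The TNBC call was lost without Ocoxin replicate 1 or 2 or control replicate 1 or 3 (0.0922, 0.111, 0.0874 and 0.0617, and 9.42e-05 to 0.111 over all alternatives).

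FANCB, the core subunit encoded on the X chromosome, fell in COAD from 20.7, 23.3 and 20.9 CPM to 16.6, 15.9 and 18.4 CPM (-0.35, adjusted p = 0.0248), and FANCC from 51.2, 52.1 and 51.9 to 42.1, 45.9 and 43.7 (-0.24, adjusted p = 0.0414). Neither gene overlapped between the groups. The FANCB call was lost without Ocoxin replicate 2, control replicate 1 or control replicate 2 (adjusted p = 0.184, 0.067 and 0.198, and 6.53e-05 to 0.198 over all alternatives), and the FANCC call without any 1 library (0.0555 to 0.2, and 0.00104 to 0.2 over all alternatives). FANCL, the ligase subunit itself, went against most members in TNBC, from 28.9, 27.6 and 27.5 CPM in the controls to 24.2, 25.05 and 24.3 CPM with Ocoxin without overlap (-0.19, adjusted p = 0.0329). This call was also lost without any 1 library (adjusted p = 0.0524 to 0.118, and 0.00874 to 0.118 over all alternatives). It was lost in 2 of 9 other alternatives, 1 of them DESeq2 (adjusted p = 0.0531).

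FANCM, the translocase that anchors the core to DNA, passed the test in no line. It was at 22.9, 22.2 and 21.1 CPM (control) and 25.4, 26.1 and 23.8 (Ocoxin) in TNBC, all higher with Ocoxin (adjusted p = 0.0638, 0.0166 with the replicate block), and at 16.6, 17.8 and 20.3 (control) and 19.9, 21.4 and 22.8 (Ocoxin) in PAAD, with overlap (adjusted p = 0.148, 0.0168 with the block). It overlapped in COAD, at 28.96, 26.1 and 29.2 (control) and 26.4, 24.4 and 26.6 (Ocoxin), and in PRAD, at 60.6, 57.9 and 64.3 (control) and 46.1, 56.9 and 60.6 (Ocoxin). FANCE and FANCF, which sit with FANCC in the core, were altered in no line, and in PRAD FANCF was higher in every treated library (0.19, adjusted p = 0.148). UBE2T, the conjugating enzyme that serves FANCL, had log2 fold changes of -0.15 to -0.027 and was below 0 in all 4 lines, with no call (adjusted p = 0.11 to 0.87).

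The FANCD2 and FANCI pair, the target of the core ligase, fell in COAD, and FANCD2 rose in TNBC. FANCD2 (ENSG00000144554, chr3:10026414-10101930) was at 86.5, 87.4 and 87.8 CPM in the COAD controls and at 69.8, 70.4 and 66.5 with Ocoxin (-0.34, SE 0.053, adjusted p = 0.00103), and in TNBC at 52.9, 47.8 and 52.2 (control) and 59.7, 60.6 and 58.6 (Ocoxin) (0.23, SE 0.052, adjusted p = 0.00886). Neither line overlapped, and both calls held without any 1 library. In PAAD it was at 47.9, 50.2 and 54.1 (control) and 56.03, 58.3 and 65.7 (Ocoxin), all higher with Ocoxin, with an adjusted p of 0.0533 (0.000304 with the replicate block). In PRAD it was at 134, 125 and 146 (control) and 105, 120.2 and 129 (Ocoxin), with overlap.

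FANCI fell in COAD from 259.6, 259.7 and 250.4 CPM to 221, 211 and 211 CPM (-0.26, SE 0.047, adjusted p = 0.00346), a call lost without Ocoxin replicate 2 (adjusted p = 0.0647, and 1.29e-07 to 0.0647 over all alternatives). In PRAD every treated library was lower, at 219.8, 214 and 234 (control) and 158, 176 and 194 (Ocoxin) (-0.34, adjusted p = 0.0539, 0.0115 with the replicate block). FANCI overlapped in PAAD, at 162, 171 and 182 (control) and 174, 181 and 198 (Ocoxin) (adjusted p = 0.364, 0.0398 with the block), and in TNBC, at 161, 153 and 172 (control) and 166, 171 and 170.3 (Ocoxin). USP1, the enzyme that removes the ubiquitin from FANCD2, was lower in every treated library of COAD and PRAD and higher in every treated library of TNBC, and passed the test in none of them (adjusted p = 0.229, 0.222 and 0.123, the last 0.0218 with the block).

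Some libraries were often the lowest or the highest of their group among the members. In PRAD, Ocoxin replicate 1 was the lowest treated library for 29 of the 34 members and Ocoxin replicate 3 the highest for 27, control replicate 3 was the highest control for 24 and control replicate 2 the lowest for 25. In PAAD, control replicate 1 was the lowest control for 23 and Ocoxin replicate 1 the lowest treated library for 20. In COAD no library was the highest or lowest of its group for more than 17, and in TNBC 17 was also the most. These ranks were not counted over all genes, so they cannot show whether such an order is particular to the members. The part of these libraries in the results was not tested beyond leaving each out in turn.

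Whether the response of a gene differs between lines was tested directly, as the mean response of PAAD and TNBC minus that of COAD and PRAD in a fit of all 24 libraries. The response was more positive in PAAD and TNBC for 16 of the 33 members and more negative for none, where 6.21% of 24631 genes differed, 3.34% more positive and 2.87% more negative. With the replicate block 23 members passed, all more positive, where 7.04% of all genes were more positive, although COAD's numbers did not meet the rule for pairs. The 7 added were BARD1, BRCA2, FANCB, RAD50, RAD54B, SLX4 and USP1, with BARD1 at an adjusted p of 0.0406 against 0.14 without the block. Since the split of the lines is that of the RAD54L signs, the share is a description. The difference was above 0 for 30 members, and its median over all 34 was 0.30 on the log2 scale (-0.010 over all genes). RAD54L had 0.61 (SE 0.074), given without a test.

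The largest difference was that of EME1, 0.68 on the log2 scale (SE 0.096, adjusted p = 2.27e-05, edgeR). FANCA had 0.55 (SE 0.083, adjusted p = 7.3e-05) and FANCD2 0.51 (SE 0.07, adjusted p = 1.55e-05). Further differences were those of EXO1 (0.49), XRCC2 (0.44), BRIP1 (0.42), FANCI (0.39), BLM (0.39), FANCG (0.36), BRCA1 (0.36), FANCM (0.36), MRE11 (0.31), XRCC3 (0.30), RAD51C (0.30), RAD51AP1 (0.29) and FANCC (0.27). The 12 with the smallest adjusted p-values reached 1.55e-05 (FANCD2) to 0.0121 (BLM), and these 12 kept the call without any 1 library. Of the other 4, XRCC3 kept it as well. BRCA2 had a difference of 0.48 with a wide error (SE 0.16, adjusted p = 0.0769). FANCL, FANCF and MUS81 had differences below 0, of -0.15, -0.09 and -0.015, none of which passed the test.

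RAD51AP1, RAD51C, XRCC3 and BRCA1 did not pass when PRAD was left out (adjusted p = 0.234, 0.0935, 0.0965 and 0.0777). Over all alternatives their adjusted p-values were 1.27e-07 to 0.234, 2.34e-05 to 0.0935, 0.00025 to 0.0965 and 3.68e-07 to 0.0777. RAD51AP1 was also lost without PAAD Ocoxin replicate 3, PAAD control replicate 1 or 2, PRAD Ocoxin replicate 1, PRAD control replicate 3 or TNBC control replicate 2 (adjusted p = 0.0529 to 0.0662). BRCA1 was lost without COAD Ocoxin replicate 3, COAD control replicate 1, PAAD control replicate 1 or 2, PRAD control replicate 1, or TNBC control replicate 2 or 3 (0.0511 to 0.0634). FANCC was lost without PAAD control replicate 1, PRAD Ocoxin replicate 1 or PRAD control replicate 3 (0.0546, 0.0707 and 0.0621, and 0.000211 to 0.0707 over all alternatives). Line and dilution cannot be told apart in this contrast.

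COAD and TNBC received the same dilution and were counted with the same settings. The TNBC response minus the COAD response was above 0 for 31 of the 33 members and passed the test for 11, all more positive in TNBC, where 7.85% of 21068 genes differed, 3.39% more positive and 4.46% more negative. FANCD2 had 0.56 (SE 0.087, adjusted p = 0.000113), EME1 0.54 (SE 0.13, adjusted p = 0.0112) and FANCA 0.53 (SE 0.12, adjusted p = 0.0058). The other 8 were SLX4 (0.51), BRIP1 (0.47), XRCC2 (0.46), MRE11 (0.39), BLM (0.35), RAD50 (0.34), FANCI (0.32) and FANCC (0.30). The median difference over all 34 was 0.25 on the log2 scale (-0.00048 over all genes). Without COAD control replicate 2 the count was 7. FANCD2, FANCA, BRIP1, XRCC2, MRE11 and FANCI kept the call without any 1 library. EME1 was lost without COAD control replicate 2 (adjusted p = 0.0572, and 0.000512 to 0.0572 over all alternatives), and FANCC without TNBC control replicate 3 (0.0525, and 0.00157 to 0.0879). SLX4 was lost without COAD Ocoxin replicate 3, COAD control replicate 1 or 2, TNBC Ocoxin replicate 1 or TNBC control replicate 3 (0.062 to 0.0891, and 0.000146 to 0.0891 over all alternatives). RAD50 was lost without any 1 of 7 libraries, COAD Ocoxin replicates 2 and 3, COAD control replicates 1 and 2, TNBC Ocoxin replicate 3 and TNBC control replicates 1 and 2 (0.0509 to 0.0926, and 0.000118 to 0.0926). BLM was lost without any 1 of 12 of the 18 libraries, and kept the call only without COAD Ocoxin replicate 3, TNBC control replicate 3, or a PAAD library other than Ocoxin replicate 2 and control replicate 2 (0.0583 to 0.139, and 0.000407 to 0.139). It was also lost in 3 of 9 other alternatives, among them DESeq2 (adjusted p = 0.0631). The PAAD and TNBC contrast shares its COAD and TNBC libraries with this one, so the counts of both are not independent.

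**Figure D3:**
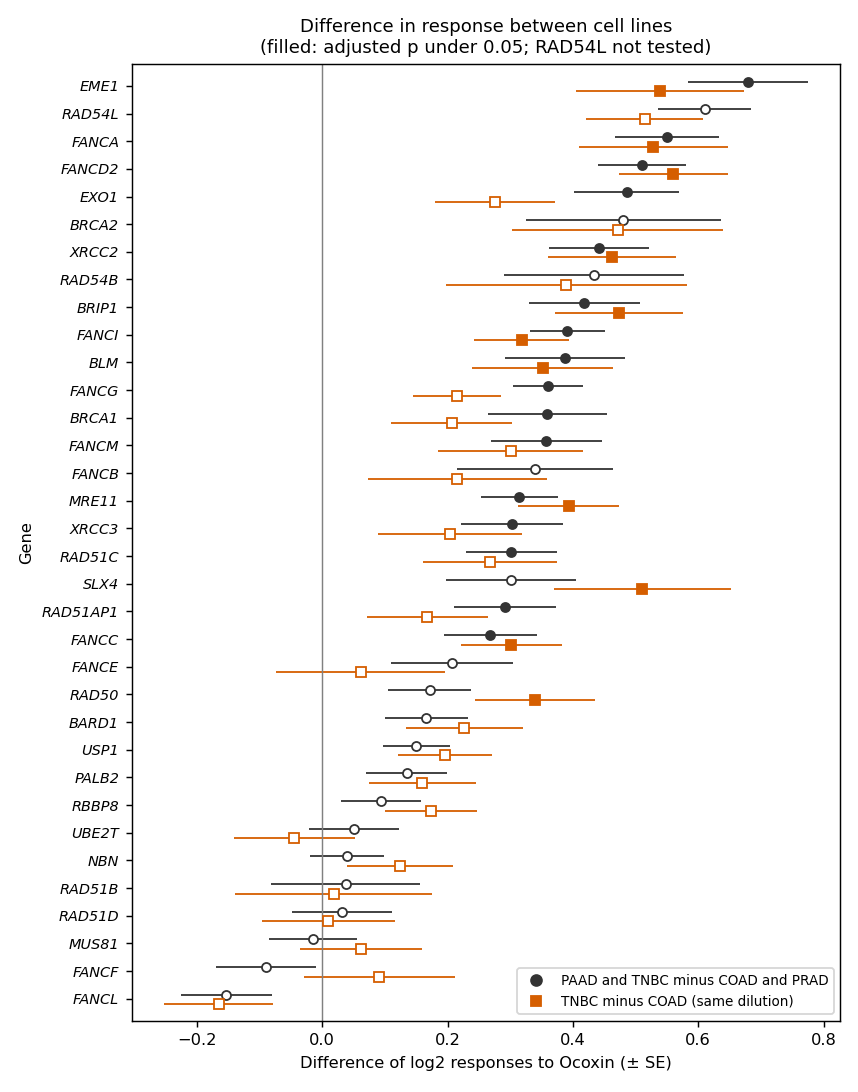
Difference of the log2 response to Ocoxin between lines for each of the 34 genes, with bars for the SE, as PAAD and TNBC minus COAD and PRAD (dark circles, 24 libraries) and as TNBC minus COAD (orange squares, 18 libraries). Filled points passed an adjusted p of 0.05, 16 of the circles and 11 of the squares, and RAD54L was not tested. Filled points all lie to the right of 0.

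The difference in control level between lines did not enter the choice of the group, although the control values of RAD54L are part of the response that did. Per kilobase of exon, UBE2T was the most abundant member in COAD (69.04 RPKM) and USP1 in PAAD (39.9 RPKM) and TNBC (70.6 RPKM), while RAD51B was the lowest in COAD (0.966 RPKM) and RAD54B in PAAD (0.622 RPKM) and TNBC (1.23 RPKM). The median over the 34 members was 8.93 RPKM in COAD, 6.59 in PAAD and 6.33 in TNBC. In PRAD, on its own scale, UBE2T was the highest (55.5 RPKM), RAD51B the lowest (2.55 RPKM), and the median was 13.8 RPKM.

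Between the controls of COAD, PAAD and TNBC most members differed, as most genes did. PAAD controls were lower than COAD controls for 24 of the 34 members and higher for 7, where 78.6% of 19930 genes differed, 40.2% lower and 38.4% higher (edgeR, 9 control libraries). TNBC controls were lower than COAD controls for 18 members and higher for 12, where 82.8% of genes differed, 42.4% lower and 40.5% higher. TNBC controls were higher than PAAD controls for 16 and lower for 9, where 77.1% of genes differed, 37.4% higher and 39.7% lower. Median log2 differences over the members were -0.46, -0.18 and 0.13 in this order, against -0.044, -0.037 and -0.026 over all genes. These 3 comparisons share their control libraries. They include RAD54L, counted as lower in both comparisons with COAD and as higher in TNBC than in PAAD, from which nothing is read.

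FANCF, the core subunit of a gene without introns, was at 8.42 ± 0.606 RPKM (mean ± SD, n = 3) in the COAD controls, 6.23 ± 0.034 in PAAD and 2.11 ± 0.185 in TNBC, a log2 difference of -1.996 between TNBC and COAD (SE 0.088, adjusted p = 2.63e-15). TNBC was below both other lines in every library. BRIP1 was at 11.3 ± 0.226 RPKM in COAD, 5.21 ± 0.611 in PAAD and 3.18 ± 0.114 in TNBC, with TNBC -1.83 (SE 0.076) from COAD (adjusted p = 9.22e-16). XRCC2 was at 12.1 ± 0.926 in COAD, 3.85 ± 0.318 in PAAD and 5.51 ± 0.271 in TNBC, where PAAD differed from COAD by -1.65 (SE 0.081, adjusted p = 2.5e-14).

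FANCG went the other way, at 32.6 ± 0.766 RPKM in TNBC, 20.1 ± 0.334 in COAD and 11.8 ± 0.135 in PAAD, and TNBC exceeded PAAD by 1.47 on the log2 scale (SE 0.057, adjusted p = 3.9e-16). EXO1 was also highest in TNBC, at 18.3 ± 0.924 RPKM, against 10.9 ± 0.549 in COAD and 6.99 ± 0.393 in PAAD. BRCA2 was lower in COAD (1.81 ± 0.191 RPKM) than in PAAD (3.97 ± 0.807) and TNBC (3.71 ± 0.174), and PAAD and TNBC did not differ beyond their spread (adjusted p = 0.448). RAD54L was at 11.1 ± 0.245 RPKM in COAD, 9.84 ± 0.434 in TNBC and 8.48 ± 0.381 in PAAD, given without a test. MUS81 and FANCE differed in none of the 3 comparisons (adjusted p = 0.0996 to 0.696).

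**Figure D4:**
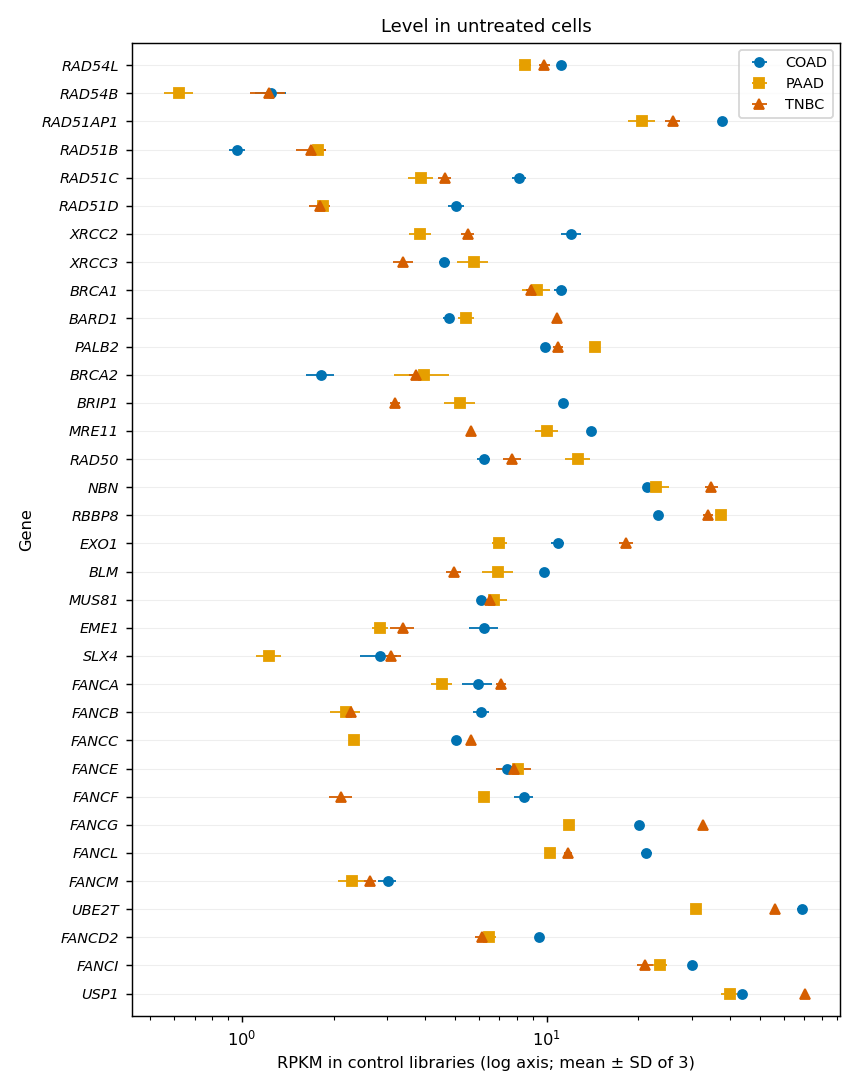
Level of the 34 genes in control cells of COAD, PAAD and TNBC, in RPKM on a log axis, as the mean of 3 libraries with bars for the SD. COAD is highest for BRIP1 and XRCC2, TNBC is highest for FANCG and EXO1 and lowest for FANCF, and all 3 lines coincide for MUS81 and FANCE.

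Further lists of genes outside the group were described in the same way. Of all genes tested in COAD, 1.47% rose and 1.09% fell, and in PRAD 2.4% and 0.58%. In PAAD 4.72% rose and 3.62% fell, and in TNBC 9.65% and 11.3%. Medians over all genes were -0.0053, 0.0088, 0.0027 and 0.0056 in COAD, PRAD, PAAD and TNBC. Of 39 other recombination and Fanconi genes, the counts of upregulated and downregulated genes were 0 and 1 in COAD, 1 and 3 in PRAD, 2 and 0 in PAAD, and 6 and 1 in TNBC, with median log2 fold changes of -0.060, -0.062, 0.00077 and 0.050. DNA2, a resection nuclease, fell in COAD (-0.22, adjusted p = 0.0219) and in PRAD (-0.43, adjusted p = 0.0491). FAN1, a crosslink nuclease, rose in TNBC (0.58, adjusted p = 0.000984) and HROB, a helicase partner in recombination, rose in PAAD (0.44, adjusted p = 0.0045). ERCC4 rose in PRAD (0.33, adjusted p = 0.0445) and ERCC1 fell in TNBC (-0.16, adjusted p = 0.0351), the subunits of 1 incision nuclease.

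End joining is the other main route of break repair. Of its 10 genes, 9 of them tested in PAAD and PRAD, none was altered in COAD or PRAD, POLM rose and XRCC5 fell in PAAD (0.33 and -0.22, adjusted p = 0.0116 and 0.021), and 2 fell in TNBC, among them XRCC5 (-0.25, adjusted p = 0.000523). Of the 15 damage signalling genes, 14 of them tested in each line, 6 rose and 1 fell in TNBC, with ATM, the break-responsive kinase, at 0.43 (adjusted p = 0.000148) and the histone gene H2AX at -0.27 (adjusted p = 0.00609). MDC1 fell in COAD (-0.40, adjusted p = 0.0146), and none of the list passed in PAAD or PRAD.

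Cell cycle genes were set beside the members. Of 38 S phase genes outside the group, 9 fell in COAD, 6 fell in PRAD, 1 rose and 3 fell in PAAD, and 4 rose and 3 fell in TNBC, with median log2 fold changes of -0.14, -0.27, 0.013 and -0.034. Of 54 G2/M genes, 22 fell in COAD, 2 fell in PRAD, 1 fell in PAAD, and 5 rose and 6 fell in TNBC, with medians of -0.18, -0.22, -0.031 and 0.0010. The summed level of the S phase genes was 6762 to 7069 CPM in COAD controls and 6036 to 6376 CPM with Ocoxin, and in PRAD 3596 to 3907 and 2902 to 3340 CPM. It overlapped between the groups in PAAD (3479 to 3670 and 3321 to 3718 CPM) and in TNBC (4642 to 4777 and 4570 to 4662 CPM). The part of these genes in the responses of the members was not tested, and RAD51AP1, EXO1, BLM, BRIP1 and USP1 are on the S phase list themselves.

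In the test between lines, 16 of the 38 S phase genes and 21 of the 54 G2/M genes responded more positively in PAAD and TNBC, and 1 G2/M gene more negatively. Of the other lists, 8 of the 39 recombination and Fanconi genes, 3 of the 15 damage signalling genes and 0 of the 10 end joining genes were more positive. Over all genes 3.34% were more positive and 2.87% more negative. In single lines, CLSPN (-0.51 in PRAD, adjusted p = 0.0257), E2F8 (-0.28 in COAD, adjusted p = 0.0287) and CDCA3 (-0.34 in COAD, adjusted p = 0.00261) fell, and GMNN (0.35, adjusted p = 8.98e-05) and MKI67 (0.24, adjusted p = 0.00621) rose in TNBC. CDC6 rose (0.21, adjusted p = 0.0451) and CDCA7 and JPT1 fell in PAAD (-0.35 and -0.26, adjusted p = 0.0247 and 0.00887), CDCA3 fell in PRAD (-0.37, adjusted p = 0.0462), and SLBP and TUBB4B fell in TNBC (-0.20 and -0.30, adjusted p = 0.00576 and 0.000254).

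**Figure D5:**
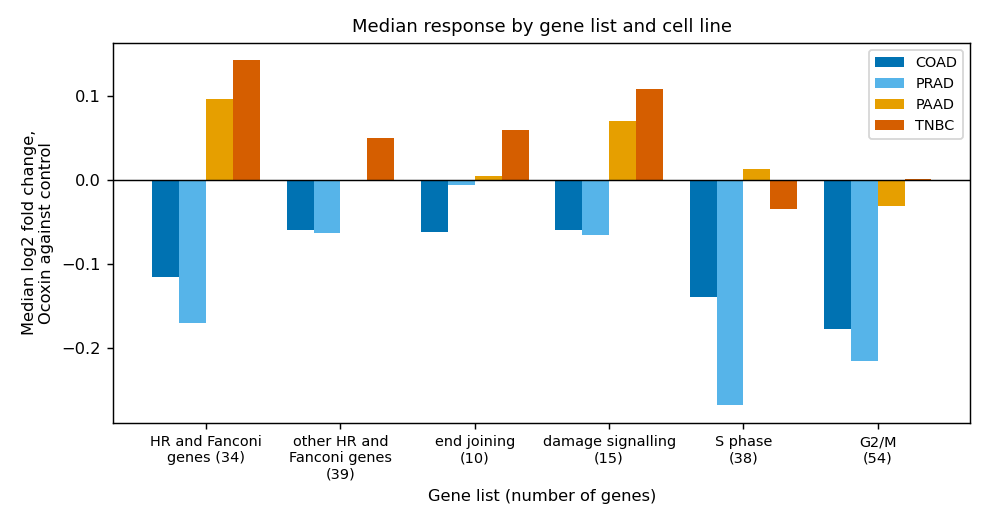
Median log2 fold change, Ocoxin against control, of each gene list in each cell line, with the number of genes under each list. The 34 members have medians of -0.12, -0.17, 0.10 and 0.14 in COAD, PRAD, PAAD and TNBC. The S phase list has -0.14, -0.27, 0.013 and -0.034 and the G2/M list -0.18, -0.22, -0.031 and 0.0010 in the same order.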

How the data were processed

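Reads were trimmed by the authors (fastp), mapped by STAR on the hg38 build, cleared of duplicates (picard) and assigned to genes by featureCounts 2.0.3. The authors deposited the raw counts in one table for PRAD and another for COAD, PAAD and TNBC. Counting did not use the strand, and the paired-end option was set only for the second table, where mates still gave separate counts, so levels were tested within a table and PRAD entered only as its own response. In the 24-library fit the response of each line was taken within its table.

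Counts were tested in each line with edgeR 4.0.16 (R 4.3.3, limma 3.58.1) by the quasi-likelihood F-test after filterByExpr and TMM scaling, with p-values adjusted by Benjamini-Hochberg over every tested gene and a threshold of 0.05. Biological coefficients of variation were 6.28% to 6.84%. Differences between lines were interaction terms, and controls of COAD, PAAD and TNBC were compared in 1 fit of 9 libraries. The SE of a log2 value was its absolute size divided by the square root of its F statistic, and is not the SD of the libraries. For RAD54L it rests on the same statistic, from which nothing is read. CPM values were scaled with TMM factors, and RPKM is CPM per kilobase of exon. The code was tested on simulated data. Members were matched by symbol, and the members and the further lists were chosen with earlier results of these data known. RAD54L was given in every library, as were up to 12 other members altered in at least 2 lines or differing between lines, by smallest adjusted p between lines, and each further list was represented by the altered gene that rose most and the one that fell most in each line.

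Replicate numbers were taken as pairs in PAAD, PRAD and TNBC, where deviations of same-numbered libraries from their group means correlated above 0.1 in all 3 pairs (0.442, 0.346 and 0.655 in PAAD, 0.148, 0.239 and 0.556 in PRAD, 0.306, 0.335 and 0.642 in TNBC) over genes with a mean of at least 500 counts. That minimum was chosen after the correlations over all genes had been seen, where no line met the rule. In COAD the values were 0.432, 0.0993 and 0.54. Unlike numbers correlated as well. PRAD control 1 had 0.173 with Ocoxin 2 and 0.148 with Ocoxin 1. TNBC control 2 had 0.357 with Ocoxin 1 and 0.335 with Ocoxin 2. In PAAD control 1 had 0.243 with Ocoxin 2, below its value with Ocoxin 1. In these 3 lines replicate 3 correlated above 0 only with its own number. The pairs of numbers 1 and 2 are thus an assumption, on which the values with the replicate block rest. DESeq2 1.42.0, other scalings and filters, a replicate block, removal of a length and GC trend, and leaving out each library were the alternatives. In COAD, PAAD and TNBC, where mates gave separate counts, the counts were also halved.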

Additional observations from a re-analysis of the deposited data

Results flagged for a closer look

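The response to Ocoxin of 16 genes passed a test of the difference between cell lines, as the mean log2 response of PAAD and TNBC minus that of COAD and PRAD (edgeR, 24 libraries). The differences were 0.68 for EME1, 0.55 for FANCA, 0.51 for FANCD2, 0.49 for EXO1, 0.44 for XRCC2, 0.42 for BRIP1, 0.39 for FANCI, 0.39 for BLM, 0.36 for FANCG, 0.36 for BRCA1, 0.36 for FANCM, 0.31 for MRE11, 0.30 for XRCC3, 0.30 for RAD51C, 0.29 for RAD51AP1 and 0.27 for FANCC.

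Between the lines given the same dilution, the TNBC response minus the COAD response passed the test for 11 of the 33 members. Of all 21068 genes 7.85% passed, 3.39% more positive and 4.46% more negative. The differences were 0.56 for FANCD2, 0.54 for EME1, 0.53 for FANCA, 0.51 for SLX4, 0.47 for BRIP1, 0.46 for XRCC2, 0.39 for MRE11, 0.35 for BLM, 0.34 for RAD50, 0.32 for FANCI and 0.30 for FANCC. The group was chosen for the opposite signs of RAD54L in these lines, and both contrasts use the same COAD and TNBC libraries. As given above, some calls of both contrasts were lost with 1 library left out. The BLM call in TNBC against COAD was lost without any 1 of 12 of the 18 libraries.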

How the results depend on the processing

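Of calls of single genes, 0 of 458 values under other settings and 0 of 726 with each library left out changed direction, while 30 and 109 calls were lost. Only genes that had already passed entered, and the refits shared their libraries. A change of direction was thus unlikely from the start, and nothing is read from its absence. Of 264 summary values 220 stayed near the reported one and 44 moved, and the cause was not tested. In COAD (7 altered members) the count was 4 in a fit of all 24 libraries and 3 at an adjusted p under 0.01. In PAAD (2) it was 9 with the length and GC trend removed, 6 with no filter on low counts and 0 at 0.01. In PRAD (1) it was 5 with DESeq2, 2 with its size factors, 8 in the fit of all 24, 11 with the trend removed, 6 with no filter and 0 at 0.01. In TNBC (14) it was 6 in the fit of all 24 and 5 at 0.01. A minimum of 1.5-fold left 0 members in each line. With the trend removed, the altered genes among all genes went from 451 to 810 in COAD, from 1440 to 2431 in PAAD and from 508 to 2451 in PRAD. Where the share over all genes is not given, these counts are not read as results about the members.

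With the replicate block the counts were 11 in COAD, 12 in PAAD and 6 in PRAD, and with the block and trend removal together 13, 12 and 22. In TNBC the block gave 20. For the test of PAAD and TNBC against COAD and PRAD (16) the block gave 23 and both together 26, and for TNBC against COAD (11) 20 and 19. The numbers in COAD did not meet the pairing rule. Of all genes with the block, 12.1% were higher in PAAD, 2.69% were lower in PRAD and 7.04% were more positive in PAAD and TNBC. For the other counts the share over all genes is not given, and nothing is read from them.

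With each library left out in turn, altered members numbered 1 to 6 in COAD, 0 to 6 in PAAD, 0 to 4 in PRAD and 6 to 12 in TNBC. The test between lines gave 13 to 21 and that of TNBC against COAD 7 to 13. Control comparisons gave 29 to 31, 26 to 30 and 21 to 26, and 16 to 18 members had the sign order. Medians ranged over -0.1255 to -0.0902 in COAD, 0.0544 to 0.1533 in PAAD, -0.229 to -0.1175 in PRAD and 0.1414 to 0.1518 in TNBC.

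Depth cannot be ranked between PRAD and the other lines, whose mates were counted separately, each group held 3 libraries, and an exact permutation test of 3 against 3 cannot give a p below 0.1.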
